A study of Mus musculus with 7 samples.

Results

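The 10 genes described here encode tetraspanins of blood stem and progenitor cells, namely Tspan8, Tspan32, Tspan33, Cd9, Cd37, Cd53, Cd63, Cd81, Cd82 and Cd151. They were 10 of the 19938 genes that could be named on the arrays, and each of the 10 was read by 1 probe set that the annotation pairs with that gene alone. The cells were hematopoietic stem cells (HSCs), sorted from mouse bone marrow as lineage-negative, Sca1+, cKit+, CD150+ and CD48- cells, and their transcripts were profiled to see what loss of the transcription factor C/EBPα does to them. The control mice were Cebpa flox/flox (3 arrays, called Cebpa fl/fl here), in which loxP sites surround the Cebpa gene but no recombinase is present. The other mice were Cebpa flox/flox;Mx1Cre (4 arrays, called Cebpa Δ/Δ), in which the Cre recombinase stands under the interferon-inducible Mx1 promoter. All mice of both genotypes were female, of strain C57BL/6 and young adults by the study's methods, all received the interferon inducer pIC, and all were killed at day 18. The Mx1 promoter is active in many tissues, so deletion was not limited to HSCs, and the controls carried no Mx1Cre transgene, so an effect of Cre itself cannot be told apart from the deletion. The series counts as many mice as arrays, while its preparation notes speak of triplicates, and the spread given here is that between arrays.

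Tetraspanins are small proteins that cross the membrane several times and gather integrins, proteases and receptors of the immunoglobulin family into patches of the plasma membrane called tetraspanin-enriched microdomains. Members differ mainly in the partners they bind. In blood, some are found on nearly all leukocytes, some on platelets or on the red cell lineage, and several are used as surface markers of stem and progenitor cells.

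The 3 members with the largest differences between genotypes were Tspan8, Tspan33 and Cd53, and their promoters are shown here because the mice compared here differ in a transcription factor. Each stretch holds 300 bases, 250 before and 50 after the annotated start, 5′ to 3′ on the strand of the gene, from RefSeq on GRCm38.p6. Capitals mark every match, on either strand, to 5 short motifs, which were TTGCNNAA for C/EBP, AGATAA for GATA factors, GAGGAA for ETS factors, TGTGGT for RUNX and CCACACCC for KLF factors. The Tspan8 promoter lies at chr10:115817034-115817333 on the plus strand, that of Tspan33 at chr6:29693964-29694263 on the plus strand, and that of Cd53 at chr3:106790100-106790399 on the minus strand.
Tspan8: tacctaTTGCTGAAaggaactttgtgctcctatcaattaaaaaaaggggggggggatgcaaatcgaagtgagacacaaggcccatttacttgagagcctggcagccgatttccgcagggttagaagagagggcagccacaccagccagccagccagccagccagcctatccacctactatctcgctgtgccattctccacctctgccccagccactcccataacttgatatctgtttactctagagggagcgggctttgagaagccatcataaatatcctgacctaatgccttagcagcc
Tspan33: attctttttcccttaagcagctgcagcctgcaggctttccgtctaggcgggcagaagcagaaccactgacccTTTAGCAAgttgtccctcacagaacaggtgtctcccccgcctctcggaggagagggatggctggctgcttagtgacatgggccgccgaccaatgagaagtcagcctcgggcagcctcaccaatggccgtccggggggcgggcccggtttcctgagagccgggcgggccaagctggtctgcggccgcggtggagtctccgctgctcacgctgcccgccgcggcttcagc
Cd53: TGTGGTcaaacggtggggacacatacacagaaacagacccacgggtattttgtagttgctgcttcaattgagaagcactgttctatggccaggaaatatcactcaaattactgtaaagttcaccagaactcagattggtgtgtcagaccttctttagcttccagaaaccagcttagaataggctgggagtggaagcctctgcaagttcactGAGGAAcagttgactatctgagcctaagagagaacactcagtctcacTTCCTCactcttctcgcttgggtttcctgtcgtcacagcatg
The windows of Tspan8 and Tspan33 held 1 match each, both to the C/EBP letters, as TTGCTGAA at position -244 from the Tspan8 start and TTTAGCAA at position -178 from the Tspan33 start. The Cd53 window held TGTGGT at its first base and the ETS letters GAGGAA and TTCCTC on either side of the start, and no match to the C/EBP letters. All 10 members were found in the promoter table, with 14 windows between them. The C/EBP letters were present in 4 of these 14 windows, against 10.8% of 32851 mouse promoters. They came from 3 of the 10 members, Tspan8, Tspan33 and Cd82, the last with more than 1 such window. ETS letters were present in 5 of 14 windows against 28.3% of all promoters, RUNX letters in 4 against 16.8%, GATA letters in 1, that of Tspan32, against 11.2%, and KLF letters in 1, of Cd82, against 3.56%. None of the 21 matches overlapped another. These are matches of letters in a window and not measured binding. The study measured C/EBPα binding in wider stem and progenitor populations, and the matches were not compared with it.

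The values are log2 intensities after Robust Multichip Average normalisation, on which the median gene had a level of 5.86, and a level of one probe set cannot be compared with that of another. Cebpa, the targeted gene, was at 5.54, 5.75 and 5.63 in fl/fl arrays 1 to 3 and at 5.11, 5.24, 5.27 and 5.27 in Δ/Δ arrays 1 to 4. The genotypes did not overlap (log2 fold change -0.41, SE 0.07, exact two-sided permutation p = 0.0286, the smallest that 35 splits of the arrays allow). The change of Cebpa, 1.33-fold, was under the study's 1.5-fold threshold given below (limma with Benjamini-Hochberg adjusted p = 0.337). The mean of Cebpa was under the level of the median gene in both genotypes (5.64 and 5.22). By the study's methods, the loxP sites lie shortly after the transcript start and beyond the polyadenylation signal. Nearly the whole transcript thus falls between them. The study reported complete recombination in Δ/Δ mice, by PCR of whole bone marrow and spleen. Probe positions were not examined. Arrays fl/fl 1 and Δ/Δ 3 correlated least with the other arrays (mean r of 0.957 and 0.960, against 0.965 to 0.968), so the fold changes of the members are also given without both. Among the antigens of the sort, Kit and Slamf1 (CD150) differed by -0.34 (SE 0.15) and -0.29 (SE 0.29), whereas Cd48, which the gate selects against, was at 4.82, 5.61 and 4.62 in fl/fl and at 8.15, 7.70, 8.82 and 6.40 in Δ/Δ arrays. Sums of linear intensity over marker lists also differed. For erythroid markers, of which 9 of 12 were measured and 9 were higher in Δ/Δ, the sum was 673 to 1091 in fl/fl and 2391 to 4670 in Δ/Δ, and Alas2, Kel and Rhag had fl/fl means below the level of the median gene (5.54, 5.28 and 5.43). The neutrophil sum was 6969 to 18939 against 713 to 1617 with 8 of 9 markers lower, the early lymphoid sum 187 to 261 against 528 to 1151 with 5 of 6 higher, and the macrophage and dendritic cell sum 381 to 581 against 735 to 1125 with 3 of 8 higher. The lists share genes, since Flt3 is a higher marker of both the early lymphoid and the macrophage and dendritic cell list. Cd48 is likewise counted in both the early lymphoid and the stem cell and sort list. Sums overlapped between genotypes for stem cell and sort (2909 to 4533, 8 of 10 measured), megakaryocyte (888 to 1444), B cell (283 to 422), T and NK cell (327 to 1018) and mast cell (935 to 1437) markers, with 1, 0, 0, 2 and 1 markers higher and 0 lower in any. The 1 higher marker of the stem cell and sort list was Cd48, and the other 7 measured all had negative log2 fold changes, among them Hlf (-0.51, SE 0.23) and Mecom (-0.41, SE 0.34), with a list median of -0.31 and none past the thresholds described next. The 1 higher marker of the mast cell list was Cpa3, by 2.66 (SE 0.50), with no overlap of the genotypes. Gata2 had the highest level of that list in every array and so weighed most in its sum, and it differed by -0.29 (SE 0.23). Of the 6 mast cell markers measured, 5 had positive log2 fold changes and 1 negative. In bulk RNA, a change in the number of cells of a type and a change of RNA per cell cannot be told apart.

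The study's thresholds were a change over 1.5-fold with a p under 0.05, taken here as the unadjusted p of limma across all genes. At these thresholds 3 of the 10 members, Tspan8, Tspan33 and Cd53, were higher in Δ/Δ HSCs and 0 were lower, beside 1.57% of all genes higher, 0.617% lower and 2.19% in either direction. The members were chosen by gene family with the fold changes of this same comparison in view, so nothing is read from that count and their values are a description. Arrays of the 2 genotypes did not overlap for the same 3 members and, in the other direction, for Tspan32, beside 3.51% of all genes higher, 2.46% lower and 5.97% in either direction. Fold changes were positive for 5 members and negative for 5, with a median of 0.09 on the log2 scale against 0.00 over all genes. With Benjamini-Hochberg adjustment limma called 0 of the 19938 genes, the smallest adjusted p being 0.207, whereas an unadjusted p under 0.05 was reached by 877 genes with higher values (4.4%) and by 615 with lower values (3.08%).

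**Figure D1:**
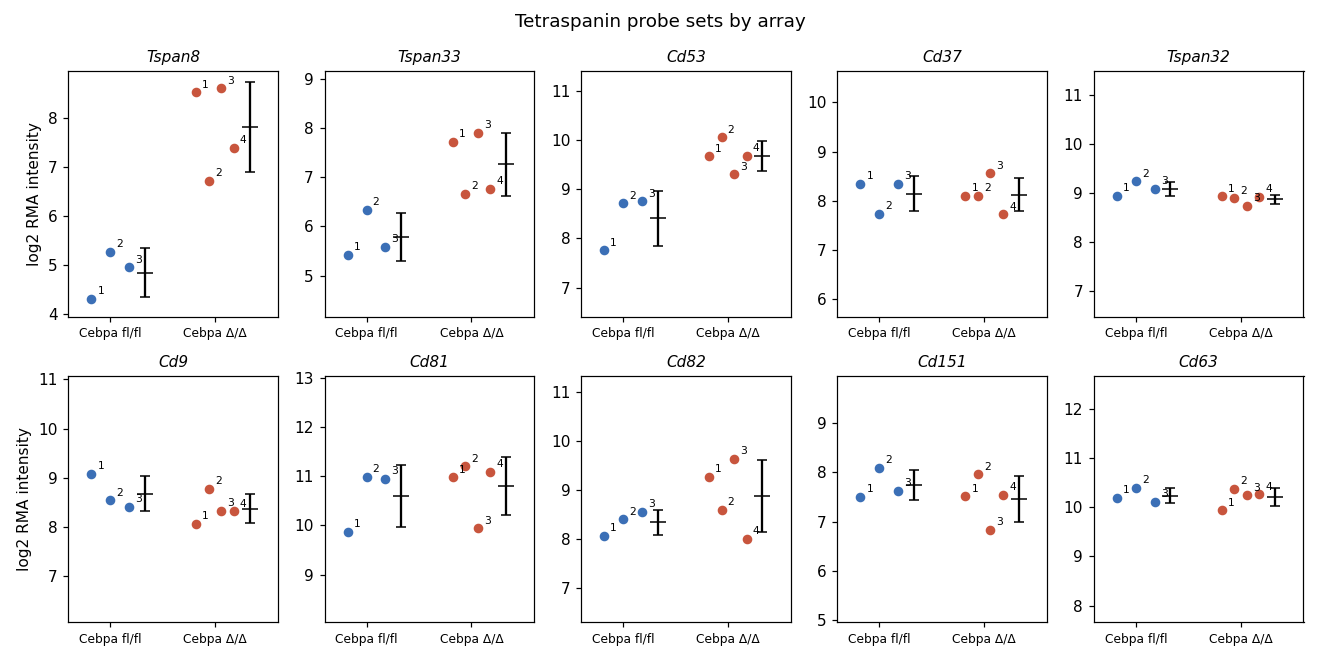
Log2 intensity of each of the 10 tetraspanins in every array, Cebpa fl/fl (3) and Cebpa Δ/Δ (4), with 1 point per array and a line at each genotype's mean, and each panel has its own axis. The 4 Δ/Δ points of Tspan8, Tspan33 and Cd53 sit above all 3 fl/fl points, and those of Tspan32 sit below them.

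Tspan8, a tetraspanin best known from epithelia and tumour cells, differed most. It was measured at 4.31, 5.27 and 4.96 in fl/fl arrays 1 to 3 and at 8.52, 6.72, 8.60 and 7.39 in Δ/Δ arrays 1 to 4. All fl/fl arrays were under the level of the median gene and all Δ/Δ arrays above it, and no detection call was used that would tell a low level from background. The mean was 4.85 ± 0.49 (SD, n = 3) in fl/fl and 7.81 ± 0.91 (SD, n = 4) in Δ/Δ, a log2 fold change of 2.96 (SE 0.52) or 7.77-fold. Within Δ/Δ, arrays 1 and 3 were high and arrays 2 and 4 low, a range of 1.88 on the log2 scale.

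Tspan33, also called Penumbra, belongs to the TspanC8 tetraspanins, which escort the metalloprotease ADAM10 to the cell surface, and is known from red cell development. Its values were 5.42, 6.34 and 5.58 in fl/fl arrays 1 to 3 and 7.73, 6.66, 7.91 and 6.76 in Δ/Δ arrays 1 to 4. The mean was 5.78 ± 0.49 (SD, n = 3) in fl/fl and 7.26 ± 0.64 (SD, n = 4) in Δ/Δ, a log2 fold change of 1.48 (SE 0.40) or 2.80-fold. The fl/fl mean was just under the level of the median gene, with arrays 1 and 3 below that level and array 2 above it. The gap between genotypes was narrow, since fl/fl array 2 came close to Δ/Δ array 2. As for Tspan8, Δ/Δ arrays 1 and 3 were the high ones. Without fl/fl 1 and Δ/Δ 3 together, the log2 fold change of Tspan33 was 1.09 and no longer passed the thresholds, while that of Tspan8 was 2.43 and did.

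The erythroid marker sum was highest in the same arrays as both genes, as were some other sums. It was 673, 1091 and 784 in fl/fl arrays 1 to 3 and 4670, 2411, 4224 and 2391 in Δ/Δ arrays 1 to 4. The array with the highest sum among fl/fl, array 2, was also the highest of its genotype for Tspan8 and Tspan33, and Δ/Δ arrays 1 and 3 were the highest of theirs for the sum and for both genes. The early lymphoid sum had the same highest arrays, at 187, 261 and 217 in fl/fl and 814, 812, 1151 and 528 in Δ/Δ. So had the T and NK cell sum, at 327, 749 and 368 in fl/fl and 910, 884, 1018 and 440 in Δ/Δ. In every array that sum rested most on Nkg7, which did not pass the thresholds. Nkg7 was at 7.71, 9.24 and 7.98 in fl/fl and at 9.52, 9.49, 9.59 and 8.17 in Δ/Δ. The other 5 of the 6 measured T and NK cell markers lay under the level of the median gene. The macrophage and dendritic cell sum was also highest in Δ/Δ arrays 1 and 3, but among controls in fl/fl array 3. The part of erythroid or other cells in the difference of either gene was not tested.

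Cd53 and Cd37 are tetraspanins of leukocytes, and Tspan32 (TSSC6) is largely restricted to hematopoietic cells. Cd53 was at 7.76, 8.71 and 8.75 in fl/fl arrays 1 to 3 and at 9.67, 10.06, 9.31 and 9.68 in Δ/Δ arrays 1 to 4. All Δ/Δ arrays were above all fl/fl arrays, with fl/fl 1 well under the other controls. The mean was 8.41 ± 0.56 (SD, n = 3) in fl/fl and 9.68 ± 0.31 (SD, n = 4) in Δ/Δ, a log2 fold change of 1.27 (SE 0.29) or 2.41-fold, which was 0.95 without fl/fl 1 and 1.07 without fl/fl 1 and Δ/Δ 3, both still past the thresholds. The order of the Δ/Δ arrays was not that of Tspan8 and Tspan33, since Δ/Δ 3 was the lowest for Cd53 and Δ/Δ 2 the highest. Nor was it that of the early lymphoid sum, which was 814, 812, 1151 and 528 in Δ/Δ arrays 1 to 4, or of the macrophage and dendritic cell sum, which was 1125, 735, 961 and 792. Both sums were higher in every Δ/Δ array than in every fl/fl array, and the part of such cells in the difference of Cd53 was not tested.

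Cd37 showed no separation of the genotypes. Its values were 8.35, 7.74 and 8.35 in fl/fl arrays 1 to 3 and 8.10, 8.10, 8.56 and 7.73 in Δ/Δ arrays 1 to 4, and the lowest array of each genotype lay at nearly the same level. The log2 fold change was -0.02 (SE 0.23, with means of 8.15 ± 0.35, SD, n = 3, and 8.12 ± 0.34, SD, n = 4), and its sign turned under 4 of 17 alternative analyses.

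Tspan32 was the steadiest member. It was measured at 8.94, 9.23 and 9.08 in fl/fl arrays 1 to 3 and at 8.93, 8.89, 8.74 and 8.92 in Δ/Δ arrays 1 to 4. Every Δ/Δ array was lower than every fl/fl array, although Δ/Δ 1 and fl/fl 1 were nearly equal. The log2 fold change was -0.21 (SE 0.09), or 1.16-fold, with means of 9.08 ± 0.15 (SD, n = 3) and 8.87 ± 0.09 (SD, n = 4), and it did not reach the fold threshold.

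Cd9, Cd81, Cd82 and Cd151 bind integrins and immunoglobulin-like partners and are found on many cell types. Cd9, which is abundant on platelets and has been used as an HSC surface marker, was at 9.08, 8.54 and 8.42 in fl/fl arrays 1 to 3 and at 8.06, 8.78, 8.33 and 8.32 in Δ/Δ arrays 1 to 4. Its log2 fold change was -0.31 (SE 0.22), the most negative of the members, and the genotypes overlapped. Without fl/fl 1, the highest array, it was -0.11. The genes of the megakaryocyte and platelet list had a median log2 fold change of 0.19, with 0 of 5 measured genes past the thresholds.

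Cd151, a partner of laminin-binding integrins, was at 7.50, 8.09 and 7.63 in fl/fl arrays 1 to 3 and at 7.52, 7.96, 6.83 and 7.55 in Δ/Δ arrays 1 to 4. The 2 genotypes covered the same levels apart from the low array Δ/Δ 3. The log2 fold change was -0.28 (SE 0.28) and became -0.06 without that array.

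Cd81, which is found on most leukocytes, was at 9.88, 10.99 and 10.95 in fl/fl arrays 1 to 3 and at 10.98, 11.20, 9.94 and 11.10 in Δ/Δ arrays 1 to 4. In each genotype 1 array, fl/fl 1 and Δ/Δ 3, lay more than 1 log2 unit under the rest, by 1.09 and 1.15. The log2 fold change was 0.20 (SE 0.41), and it was -0.16 without fl/fl 1, 0.49 without Δ/Δ 3 and 0.12 (SE 0.08) without both, none of them past the thresholds.

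Cd82 (KAI1), which binds the chemokine receptor Ackr1 (DARC) and has been linked to HSC dormancy, spread most widely within Δ/Δ after Tspan8. It was at 8.07, 8.40 and 8.56 in fl/fl arrays 1 to 3 and at 9.27, 8.60, 9.63 and 8.003 in Δ/Δ arrays 1 to 4. Of the Δ/Δ arrays, 3 were above all controls and array 4 was below them. The log2 fold change was 0.53 (SE 0.39), or 1.45-fold, just under the fold threshold, and the p threshold was not met either. It was 0.83 and past the thresholds without Δ/Δ 4, and 0.14 without fl/fl 1 and Δ/Δ 3. Arrays Δ/Δ 1 and 3, the highest for Cd82, were also the highest for Tspan8 and Tspan33. The erythroid, early lymphoid, T and NK cell, and macrophage and dendritic cell sums were highest in these Δ/Δ arrays too. Array Δ/Δ 4, below all controls for Cd82, had an erythroid sum of 2391, above the 673 to 1091 of the controls. Among controls Cd82 was highest in fl/fl 3 and the erythroid sum in fl/fl 2. The part of any cell type in the values of Cd82 was not tested.

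Cd63, a tetraspanin of late endosomes, lysosomes and exosomes, was nearly level. It was at 10.19, 10.40 and 10.10 in fl/fl arrays 1 to 3 and at 9.94, 10.38, 10.24 and 10.26 in Δ/Δ arrays 1 to 4. The log2 fold change was -0.03 (SE 0.12), and its sign turned under 2 of 17 alternatives.

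**Figure D2:**
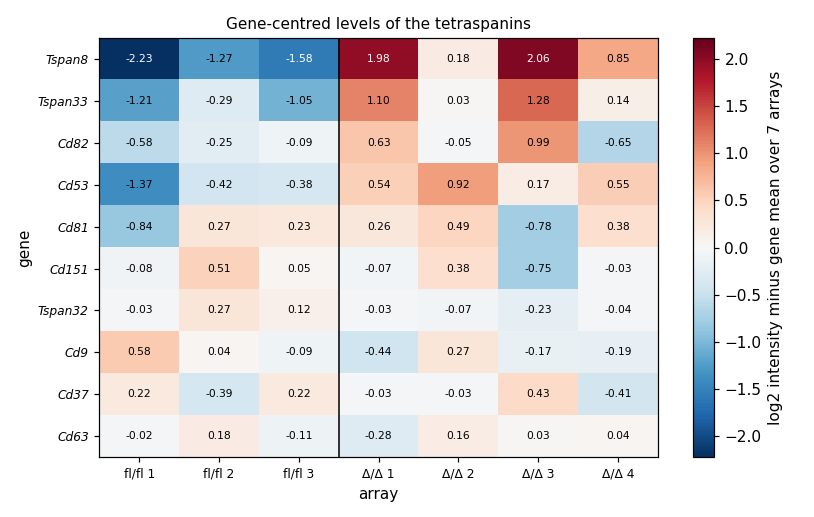
Log2 intensity of each member minus its own mean over the 7 arrays, by array, with the line between the 3 Cebpa fl/fl and the 4 Cebpa Δ/Δ arrays. Tspan8, Tspan33 and Cd82 are highest in Δ/Δ arrays 1 and 3, whereas Cd53, Cd81 and Cd151 are lower in Δ/Δ array 3 than in the other Δ/Δ arrays.

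The members differed widely in how much they varied between arrays of 1 genotype. The pooled SD within genotypes was 0.77 for Tspan8, above that of 99.3% of all genes, 0.60 for Cd81 (98.2%), 0.59 for Tspan33 (98.1%) and 0.58 for Cd82 (98.0%). It was 0.17 for Cd63 and 0.12 for Tspan32, near or under the 0.16 of the median gene. All 10 members had a mean over the 7 arrays above the level of the median gene, though Tspan8 and Tspan33 were under it in fl/fl. The SDs were not compared with those of genes of like level. Array fl/fl 1 was the lowest control for 7 of the 10 members, compared with 31.0% of all genes, and array fl/fl 2 the highest for 6, compared with 25.3%. Array Δ/Δ 3 was at one end of its genotype for 8 members, as the lowest for 4 and the highest for 4, compared with 24.8% and 25.6% of all genes. Array Δ/Δ 3 was the lowest for Tspan32, Cd53, Cd81 and Cd151 and the highest for Tspan8, Tspan33, Cd37 and Cd82. Without fl/fl 1 and Δ/Δ 3, the log2 fold changes of the members not yet given in this way were -0.24 for Tspan32, -0.09 for Cd9, -0.07 for Cd37, -0.06 for Cd63 and -0.18 for Cd151.

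**Figure D3:**
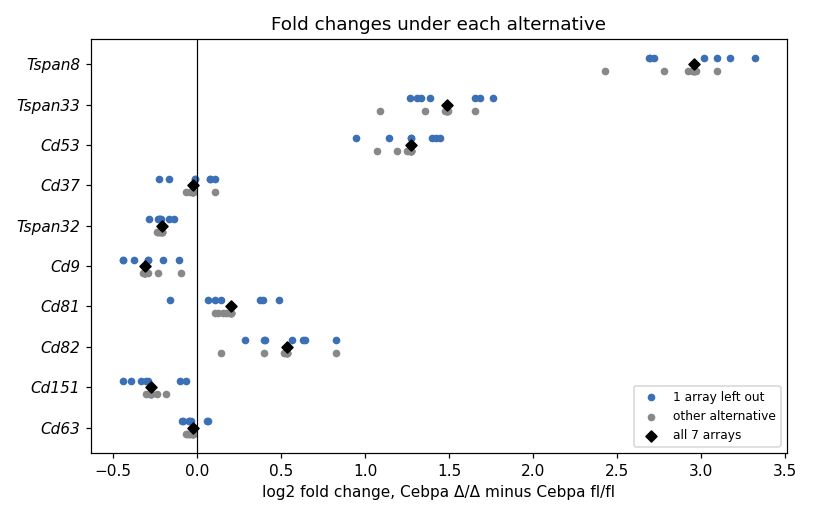
Log2 fold change (Cebpa Δ/Δ minus Cebpa fl/fl) of each member with all 7 arrays (diamond), with 1 array left out (blue) and under the other alternatives (grey). The values of Tspan8 stay between 2.43 and 3.32, those of Tspan33 between 1.09 and 1.76 and those of Cd53 between 0.95 and 1.44, while Cd37, Cd63 and Cd81 lie on both sides of 0.

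The other genes of the family were taken from a list of 23 symbols, of which 20 were measured and Tspan7, Tspan16 and Tspan19 were not. At the thresholds 0 of the 20 were higher and 1, Tspan14, was lower in Δ/Δ, beside 1.57% and 0.617% of all genes. Their median log2 fold change was -0.04, with a range from -0.72 to 0.46, and 12 of the 20 lay under the level of the median gene. Arrays of the genotypes did not overlap for Tspan11 (0.12), Tspan31 (0.21) and Tspan2 (0.46), all higher in Δ/Δ and none past the thresholds. Of all genes, 3.51% were higher without overlap and 2.46% lower. Tspan4, which had the smallest p of the family list, differed by -0.42 (SE 0.14).

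Tspan14 is, as Tspan33, a TspanC8 escort of ADAM10. It was at 9.11, 8.28 and 8.89 in fl/fl arrays 1 to 3 and at 7.64, 8.05, 8.34 and 8.15 in Δ/Δ arrays 1 to 4. Its log2 fold change was -0.72 (SE 0.24, limma with Benjamini-Hochberg adjusted p = 0.663), with fl/fl 2 lower than Δ/Δ 3. The call was lost when fl/fl 1, fl/fl 3, Δ/Δ 1 or Δ/Δ 2 was left out. Within this group of 6 genes, Tspan33 was therefore higher and Tspan14 lower, whereas Tspan15 (0.11, SE 0.07), Tspan17 (-0.12, SE 0.09), Tspan10 (-0.05, SE 0.07) and Tspan5 (0.07, SE 0.14) passed no threshold. Adam10 itself was at 9.16, 8.66 and 8.65 in fl/fl arrays 1 to 3 and at 8.74, 9.09, 8.75 and 8.75 in Δ/Δ arrays 1 to 4. Its log2 fold change was 0.01 (SE 0.16).

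**Figure D4:**
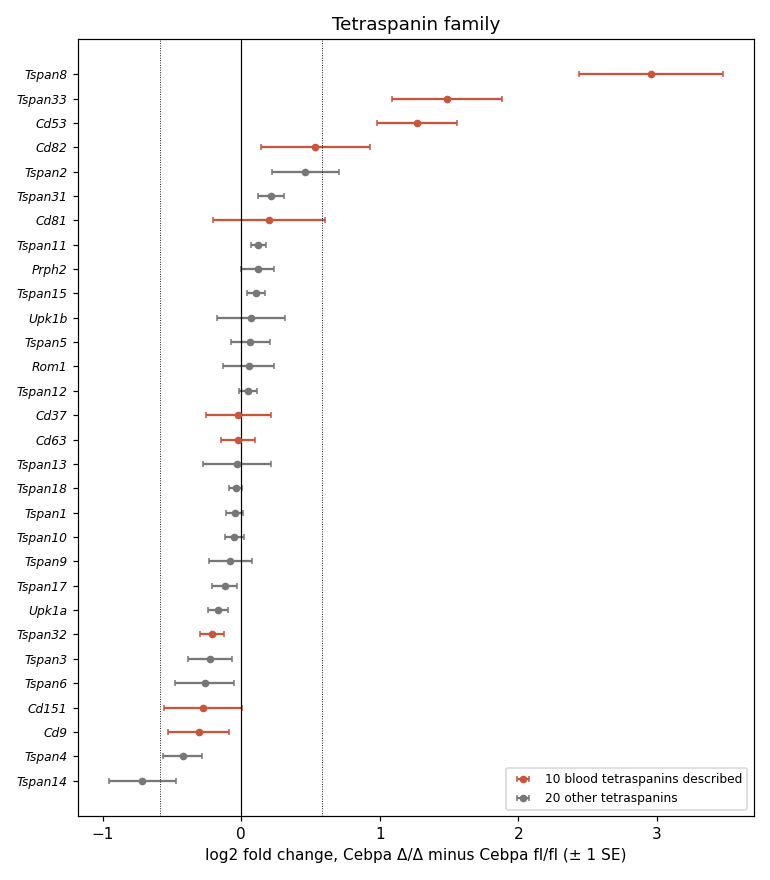
Log2 fold change (Cebpa Δ/Δ minus Cebpa fl/fl, bars ± 1 SE of the fit) of the 10 members and the 20 other measured tetraspanins, with dotted lines at 1.5-fold in either direction. Tspan8, Tspan33 and Cd53 lie to the right at 2.96, 1.48 and 1.27, and Tspan14 lies at the left end at -0.72.

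Of 20 proteins that bind tetraspanins or are regulated by them, 19 were measured. At the thresholds 1 was higher and 0 were lower in Δ/Δ, beside 1.57% and 0.617% of all genes. The median log2 fold change was 0.06, with a range from -0.34 to 0.81. The higher gene was Ackr1, the chemokine-binding partner of Cd82, at 4.60, 4.9997 and 4.87 in fl/fl arrays 1 to 3 and at 6.32, 5.41, 5.83 and 4.96 in Δ/Δ arrays 1 to 4. Its log2 fold change was 0.81 (SE 0.32, limma with Benjamini-Hochberg adjusted p = 0.663), its mean in both genotypes was under the level of the median gene, and it passed the thresholds after leaving out Δ/Δ 4 but not after leaving out any other array. Arrays of the genotypes did not overlap for the integrin chain Itga4, with a log2 fold change of 0.30 (SE 0.10), nor for Kit, the receptor of stem cell factor, with -0.34 (SE 0.15), and neither reached 1.5-fold. The shares of all genes without overlap were 3.51% higher and 2.46% lower. Adgrg1 (GPR56), a receptor that associates with CD9 and CD81 and is known from HSCs, differed by -0.31 (SE 0.16).

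The genes closest in pattern to Tspan8, Tspan33 and Cd53 were found over the 7 arrays by the root mean square difference of log2 values, each gene having been centred on its own mean. For Tspan8 these were Gstp3 (difference 0.368), a glutathione transferase, then Tspo2 (0.376), Ermap (0.394), an erythroid membrane protein, Kel (0.419), the Kell blood group protein, and Aqp1 (0.458), a water channel of red cells. The median gene differed from Tspan8 by 1.61. Tspan33 was 39th among all genes in likeness to Tspan8 and Cd53 was 167th. In the other direction, Tspan8 was 1645th in likeness to Tspan33 and 19789th in likeness to Cd53. The values were centred but not scaled, so the size of the genotype difference bears on these ranks. For Tspan33 the closest were Gzmb (0.132), the protease granzyme B, then Tlcd4 (0.150), Pklr (0.206), the pyruvate kinase of liver and red cells, C1qtnf12 (0.210) and Cpox (0.214), an enzyme of heme synthesis, against 0.897 for the median gene. For Cd53 they were Rhoj (0.202), a small GTPase, Pcp4l1 (0.234), Il10ra (0.260), the receptor of interleukin 10, Bcl6 (0.261), a transcriptional repressor, and Mras (0.294), also a small GTPase, against 0.737 for the median gene. The 3 sets of 5 genes had no gene in common, and the closest member to Cd53 was Cd81, which was 811th. These ranks come from the same 7 arrays as the fold changes.

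**Figure D5:**
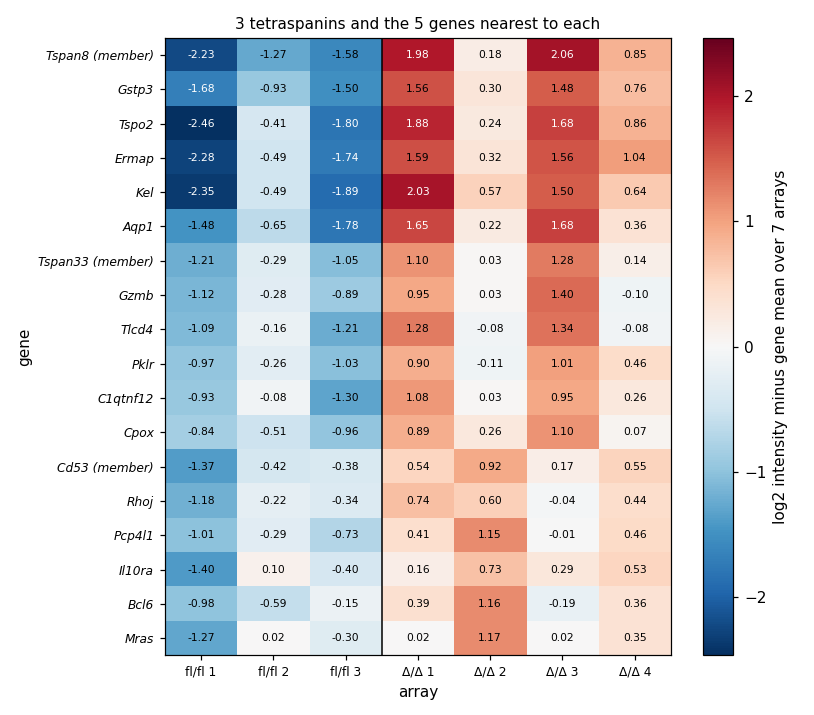
Log2 intensity minus the gene's mean over the 7 arrays for Tspan8, Tspan33 and Cd53, each with the 5 genes closest to it in pattern, by array, with the line between the 3 Cebpa fl/fl and the 4 Cebpa Δ/Δ arrays. The genes closest to Tspan8 and Tspan33 are highest in Δ/Δ arrays 1 and 3, as are these 2 members, whereas those closest to Cd53 are lowest in fl/fl array 1.

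By gene order in RefSeq, Tspan8 on chromosome 10 lies between Lgr5 (log2 fold change 0.15, SE 0.11) and Ptprr (-0.06, SE 0.07). Tspan33 on chromosome 6 lies between Tnpo3 (-0.01, SE 0.09) and Smo (0.12, SE 0.11), and Cd53 on chromosome 3 between Lrif1 (-0.08, SE 0.07) and Olfr266 (0.14, SE 0.12). These 6 genes are the nearest measured on either side. Of the 19 genes that flanked the 10 members, 0 passed the thresholds, beside 2.19% of all genes. Their log2 fold changes ran from -0.37 to 0.31. Tspan32 and Cd81 on chromosome 7 share the neighbour R74862, and the gene next to Cd82 on chromosome 2 is the tetraspanin Tspan18.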

How the data were processed

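RNA amplified from sorted HSCs was hybridised to Affymetrix Mouse Gene ST arrays. The deposited intensity values were computed by the authors with the Robust Multichip Average, which equalises probe values across arrays before they are summarised (RMA and affy in the submitters' processing notes, with no version). Values ran linearly from 1.51 to 9840, array medians were 46.2 to 50.4, and log2 was taken without a pseudocount. Of 35556 probe sets, 21789 had 1 gene symbol, 1621 several and 12146 were unnamed here. Of several probe sets of a gene, the one with the highest mean was used (999 genes). 0 columns were unused and 0 arrays were duplicates.

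All 19938 genes were fitted with limma 3.58.1 (R 4.3.3), with genotype as the only term and Benjamini-Hochberg adjustment over all genes. The fit was tested on simulated data. The members, the lists and the alternatives were chosen with earlier results of these data known. Named genes were the members, Cebpa, all TspanC8 genes, Adam10, other tetraspanins and partners past the thresholds or otherwise with the smallest p, and the 5 closest genes and chromosomal neighbours of the 3 members with the largest differences. Any further gene was picked with its values in view. The number of arrays limits the precision.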

Additional observations from a re-analysis of the deposited data

How the results depend on the processing

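Each member was refitted under 17 alternatives, namely other scalings, floors, filters, variance models, array weights, a replicate block and arrays left out. Of these fold changes 167 stayed on the same side of the thresholds, and 0 that had passed them reversed. The filter on level used the mean over all 7 arrays. Tspan8 and Tspan33 had fl/fl means of 4.85 and 5.78, under the median level of 5.86, and met it through their Δ/Δ arrays. Their results under that filter are therefore no check on them. Tspan33 fell short with fl/fl 1 and Δ/Δ 3 left out together (1.09), and Cd82 passed without Δ/Δ 4 and with a replicate block (0.83 in both). The replicate numbers were not taken as pairs, since deviations from the genotype means correlated at -0.02, 0.10 and -0.18 between arrays 1, 2 and 3 of the genotypes. The replicate block, in which Δ/Δ 4 has no counterpart and so does not bear on the difference, gave 4 members higher, and 0 other tetraspanins lower in place of 1.

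Leaving out 1 array at a time gave 3 to 4 members higher and 0 lower, 0 to 1 other tetraspanins lower, and 0 to 1 partners higher. Over all genes it gave 223 to 404 higher, 93 to 157 lower and 0 to 3 past the adjusted threshold. Without fl/fl 1 and Δ/Δ 3, 2 members, 0 partners and 169 genes were higher and 0 other tetraspanins were lower. Partners higher also numbered 0 with low values raised to percentile 25, with genes above the median level only, without moderation of the variance and with array weights. Genes above the median level only gave 5 genes past the adjusted threshold, and all 35556 probe sets in place of 1 per named gene gave 469 higher and 499 lower, against 314 and 123 among the 19938 genes. The causes were not tested.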
